A study of Homo sapiens with 15 samples.

Results

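The fibroblast monocultures were set against the epithelial monocultures of the series, which brings in 9 of its 15 libraries, and every gene of the deposited table was compared. The 3 fibroblast libraries came from fHDF/TERT166, a line of human dermal fibroblasts from foreskin immortalized with telomerase (TERT), grown without epithelium. The 6 epithelial libraries came from RPTEC/TERT1, a line of renal proximal tubular epithelial cells immortalized in the same manner, grown without fibroblasts: 3 on LN/FN-silk, a membrane made with recombinant spider silk, and 3 on LN/PC membranes. The other 6 libraries held both cell types together and were left out. Each cell type was 1 line, so the comparison is between these lines and not between dermal and renal cells at large.

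Epithelial cells were seeded at 140000 cells per cm2 and fibroblasts at 14000, and cultures were taken 14 days after seeding. The epithelium grew with 0.5% serum, 5 mM glucose, 10 ng/ml epidermal growth factor and 36 ng/ml hydrocortisone. Fibroblasts were expanded with 10% serum and G418, and the medium of their 14 days alone is not stated. Harvest was by scraping for silk and for fibroblasts, the latter from the well bottom, and by excising the membrane for LN/PC, with 3 to 8 membranes pooled per sample. The titles call the fibroblasts monocultures, whereas the protocol calls them basolateral. Cell type, medium, density, substrate and way of harvest therefore cannot be told apart in this comparison.

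Dermal fibroblasts are connective tissue cells that lay down and remodel the collagenous matrix of the skin and are known by fibrillar collagens, small proteoglycans, PDGF receptors and mesenchymal transcription factors such as TWIST1 and PRRX1. Proximal tubule cells form a polarized sheet, sealed by tight junctions, that takes up solutes from the filtrate through apical carriers driven by the basolateral sodium pump, under transcription factors of the nephric lineage such as PAX8.

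Of the 15790 genes in the table, 14502 reached 10 normalized counts in at least 3 of the 9 libraries and were tested with limma. A gene is called when its Benjamini-Hochberg adjusted p over all genes tested is under 0.05, differences are fibroblast minus epithelium on the log2(normalized count + 1) scale, and folds are ratios of the group means. By these rules 8460 genes (58.3%) differed, with fibroblasts above epithelium for 4061 (28%) and below it for 4399 (30.3%). At least 4-fold separated 1227 genes (8.46%) upward and 1790 (12.3%) downward, and at least 16-fold separated 667 and 952. The 3017 genes at least 4-fold apart became 1326 on the deposited values as they stand, and the 1227 higher ones became 717 to 725 in fits without 1 fibroblast library, in which genes restricted to fibroblasts missed the filter. With so many genes called, a share of called genes near 58.3% in a list is no more than the background. The share of called genes that were higher, 48.0%, moved to 28.6% when libraries were scaled to equal totals and to 39.2% at equal upper quartiles. These scalings shifted the median difference of all genes, -0.02, by -0.37 and -0.15.

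The library totals were 12.2 to 12.7 in fibroblasts and 9.08 to 10.9 in epithelium, in units of 1e6 normalized counts, from an estimated 8.82 to 14.6 such units of reads per library. The first principal component, with 88.2% of the variance, put the fibroblasts at 205 to 206 and the epithelium at -104 to -100. The second, with 4.97%, separated silk from LN/PC within the epithelium. The 50 most abundant transcripts took 25.3% ± 0.538 (SD, n = 3) of the counts in fibroblasts and 18.7% ± 1.13 (SD, n = 6) in epithelium (exact two-sided permutation test, p = 0.0238, the smallest that 3 against 6 allows). Fibroblasts had 12958.7 ± 15.3 genes at 10 normalized counts or more and epithelium 13545.7 ± 126 (same exact test, p = 0.0238). Mitochondrially encoded transcripts took 1.45% ± 0.241 and 2.77% ± 1.40 (exact permutation p = 0.190), and the difference of -1.32 percentage points was -0.868 without the first silk library.

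**Figure D1:**
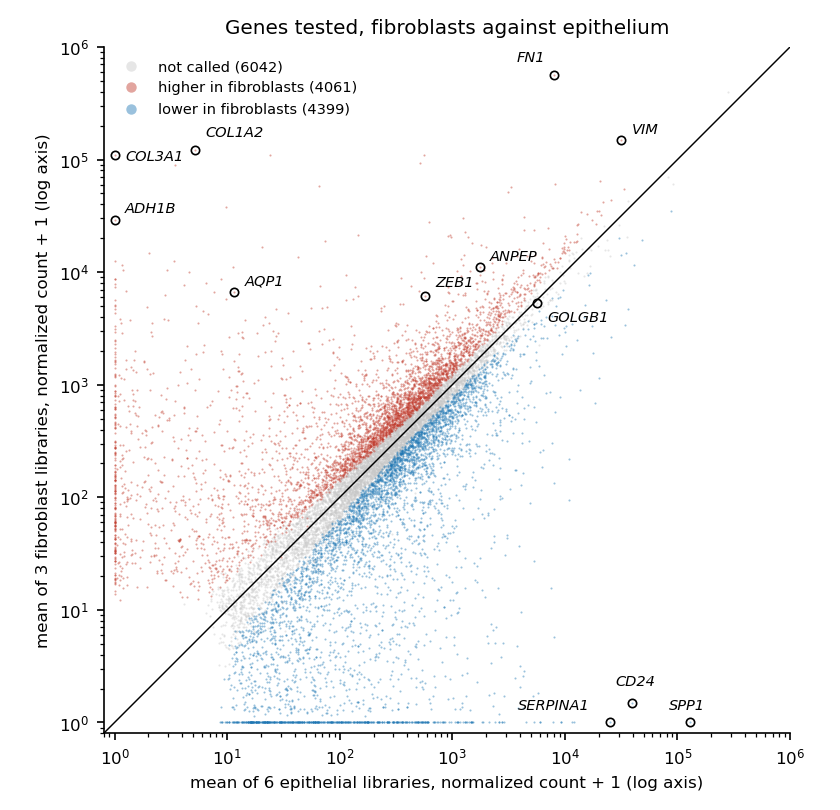
Mean normalized count + 1 of each of the 14502 genes tested in 3 fibroblast libraries (y axis, log scale) against 6 epithelial libraries (x axis, log scale), with genes called higher in fibroblasts in red, lower in blue and not called in grey, and the line of equal levels. COL3A1 and ADH1B sit on the left edge, at 0 in epithelium, and SPP1 and SERPINA1 on the bottom edge, at 0 in fibroblasts.

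Collagen transcripts took 5.96% ± 0.306 (SD, n = 3) of all counts in fibroblasts and 0.429% ± 0.0492 (SD, n = 6) in epithelium, summed over 32 collagen genes (exact two-sided permutation test, p = 0.0238). COL3A1, the chain of type III collagen, had 103048, 118793 and 106208 normalized counts in the 3 fibroblast libraries and 0 in all 6 epithelial libraries, at least 38537-fold higher. COL1A2, a chain of type I collagen, had 111309, 135829 and 119327 counts against 0 in 5 epithelial libraries and 25.1 in the third silk library (log2 difference 16.11, SE 0.84). Both genes separate the lines without overlap. A gene at 0 was set to a floor of 3 reads per library, so "at least" marks a lower bound, and reads carry no molecular identifiers, so floors and intervals cover counting error only. In bulk libraries of this kind fewer cells of a type and less RNA per cell cannot be told apart.

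COL1A1, the partner chain of type I collagen, had 101025, 121071 and 105708 counts against 0.715 to 36.7 (median 28.2) in epithelium, a 4738-fold difference. COL6A3, the large chain of the microfibrillar type VI collagen, had 87139.7, 90661 and 92683 against 0 to 9.97 (median 0.66). These low epithelial values lie far under the lowest fibroblast library in each case. Of 8 fibrillar collagen genes tested, 7 were higher and 1 lower in fibroblasts, with a median difference of 10.79, or 10.04 with genes at 0 set at their bound, beside -0.02 over all genes. COL27A1 was the lower one, at 519, 433 and 488 against 525 to 2067 (median 1388). Of 15 other interstitial collagens, 12 were higher and 2 lower (median 6.29, 5.52 at the bound). COL15A1 was at least 2589.7-fold higher and COL16A1 1014-fold higher, whereas COL17A1, a hemidesmosomal collagen of epithelia, was at least 58.4-fold lower, with no read in fibroblasts.

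The enzymes that hydroxylate, cut and crosslink collagen followed with smaller differences: 19 of 24 were higher and 3 lower (median 1.85). LOXL4, a lysyl oxidase, was at least 1782-fold higher with 5736, 4827 and 4608 counts in fibroblasts and 0 in epithelium, and ADAMTS2, the amino-terminal procollagen peptidase, was at least 875-fold higher. SERPINH1, the collagen chaperone, had 9033, 9983 and 9223 against 1316 to 2200.4 (median 1698) and was 5.35-fold higher. P3H2, PLOD2 and ADAMTS3 went the other way, by 29.8-fold, 3.45-fold and 26.6-fold. PLOD2, a lysyl hydroxylase, had 1244, 1421 and 1638 in fibroblasts and 3120.4 to 8717 (median 4619) in epithelium.

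All 10 small proteoglycan genes and all 16 elastic fibre genes tested were called higher in fibroblasts, against 28% of all genes. The medians were 9.63 (8.74 at the bound) and 7.87. LUM, encoding lumican, which binds collagen fibrils, had 7686, 6846 and 5862 counts against 0 to 0.927 (median 0). OGN, PRELP, ASPN, OMD and PODN were at 0 in every epithelial library. FBN2, a fibrillin of microfibrils, had 10146, 10684 and 10775 against 0 to 1.13 (median 0), a ratio of 55759.9-fold (95% interval 12341 to 2716204). ELN, the elastin gene, was 10014-fold (95% interval 3392 to 101198) higher, whereas LTBP3, a latent TGF-beta binding protein, differed by only 1.38-fold.

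FN1, which encodes fibronectin, was the transcript with most counts in fibroblasts: 497661, 587151 and 621039, against 3185 to 12132 (median 7319.7) in epithelium, 71.3-fold higher (log2 6.27, SE 0.32, limma adjusted p 1.1e-08). FN1 was thus present in every epithelial library, and the groups did not overlap. Among 21 matricellular and adhesive genes 15 were higher and 5 lower (median 4.28). POSTN, encoding periostin, was at least 1515-fold higher and SPARC 4355-fold higher. The lower ones were VCAN, TGFBI, CCN3, HAS3 and SPON1. VCAN, a large hyaluronan-binding proteoglycan usually listed with fibroblast matrix, had 5392, 6167 and 5510.4 in fibroblasts and 14819 to 35517 (median 23222) in epithelium. SPON1, encoding spondin 1, had 93.9, 118 and 68.9 against 7497 to 16213 (median 10974).

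**Figure D2:**
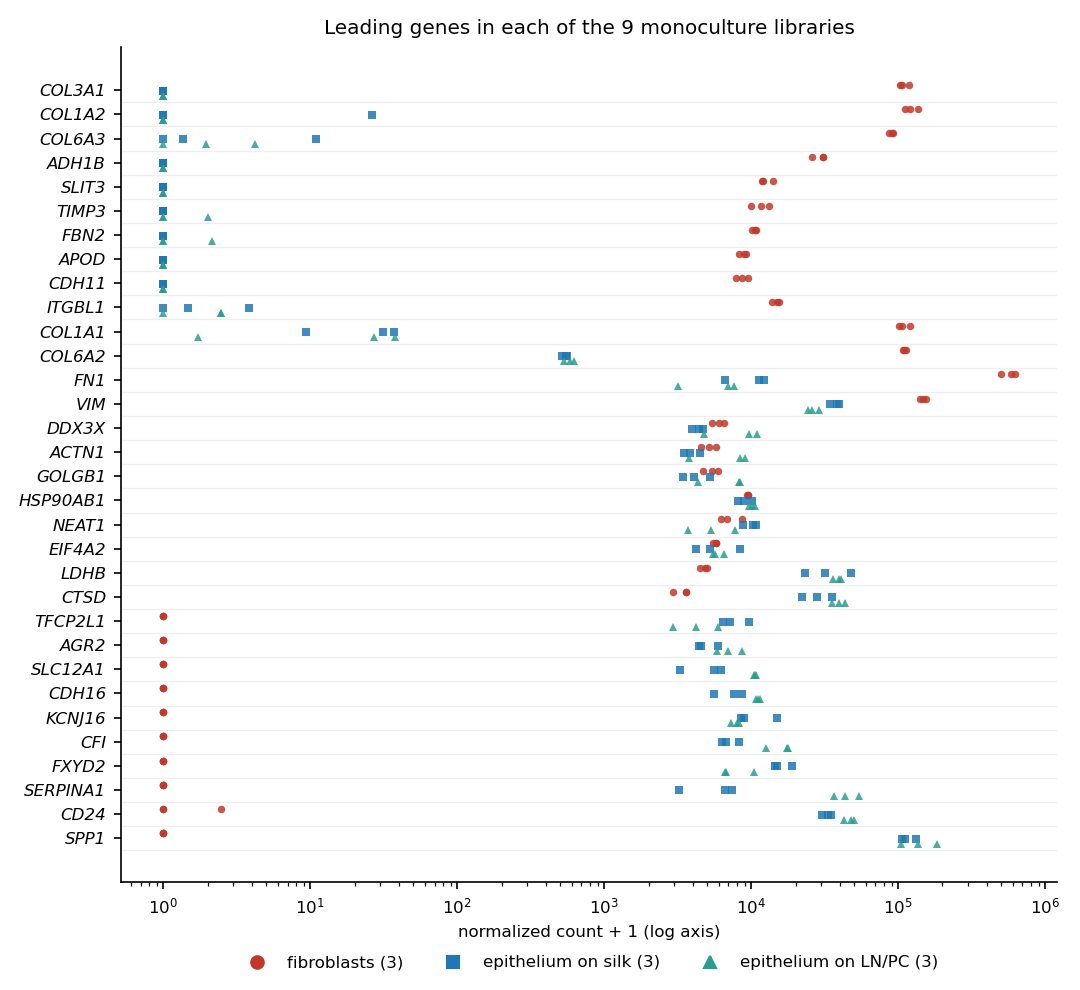
Normalized count + 1 (log axis) in each of the 9 libraries for genes with the largest differences or most counts, with fibroblasts, epithelium on silk and epithelium on LN/PC as separate symbols. FN1 and VIM are present in both lines and higher in fibroblasts, while COL3A1 is at 0 in all epithelial libraries and SPP1 at 0 in all fibroblast libraries.

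Basement membrane genes split by chain. Of 22 tested, 6 were higher and 14 lower in fibroblasts (median -1.46). The type IV collagen chains COL4A1, COL4A2, COL4A3, COL4A4, COL4A5 and COL4A6 were all lower, from 1.87-fold for COL4A5 to 5118-fold (95% interval 787 to 173182) for COL4A4, and COL4A3 was 0 in fibroblasts against 822 to 1820.1 (median 1298) in epithelium. COL4A1 had 1832, 2293 and 2483 against 6029 to 14249.7 (median 9639). Among laminin chains LAMA5 and LAMB3 were lower, by 73.2-fold and 7.77-fold, whereas LAMA2 and LAMC1 were higher, by 180.3-fold and 4.07-fold. LAMA2, the alpha chain of the laminin of muscle and mesenchyme, had 3979, 4986 and 5122 against 19.1 to 34.4 (median 25.8). NID1, which links laminin to type IV collagen, was also higher, at 3923, 4007 and 3435 against 0 to 4.42 (median 1.64), while NID2 (log2 -0.03) and LAMB1 (log2 0.08) did not pass the test.

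The matrix receptors split evenly, with 8 of 18 integrin and collagen receptor genes higher and 8 lower. ITGA11, the alpha chain of a collagen-binding integrin, had 4654, 6242 and 5930.4 counts and 0 in epithelium, at least 1977-fold higher. ITGB6, the beta chain of an epithelial integrin that activates TGF-beta, had 0, 4.51 and 0 in fibroblasts and 2663 to 4420.3 (median 3689) in epithelium. ITGB4, of the hemidesmosomal laminin receptor, was 585-fold lower. The discoidin-domain collagen receptors went in opposite directions: DDR2 had 10667, 10724 and 10073 against 0 to 3.87 (median 1.92), and DDR1 had 116, 165 and 98.5 against 3197 to 5592 (median 3528).

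Of 18 matrix proteases and inhibitors, 14 were higher and 4 lower in fibroblasts (median 3.11). TIMP3, a matrix-bound inhibitor of metalloproteinases, had 13290.4, 11686 and 9908 against 0 to 1.00 (median 0), a ratio of 69438-fold (95% interval 13448 to 2959843). MMP1, the interstitial collagenase, was 7566-fold (95% interval 964 to 212442) higher. MMP7, MMP15, MMP24 and PLAU were lower. MMP7, or matrilysin, a protease of epithelia, had 0, 1.18 and 0.929 against 2051 to 9721 (median 4176), and PLAU, urokinase, had 183, 233 and 226 against 1349 to 2565 (median 2194).

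VIM, vimentin, the intermediate filament of mesenchymal cells, was high in both lines: 147179, 141352 and 155298 against 24421 to 39290.2 (median 31575), 4.65-fold higher in fibroblasts. Of 18 contractile and cytoskeletal genes 13 were higher and 1, TPM1, lower (median 2.76). ACTA2, smooth muscle actin, had 2334, 2133 and 2615 against 212 to 390.0 (median 302), and MYL9, a regulatory myosin light chain, had 2924, 2733 and 2902 against 2.07 to 21.1 (median 11.7). MYH9, MYH10, CNN2 and CNN3 were not called.

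Among 14 mesenchymal surface markers, 11 were higher and 2 lower (median 8.30, 8.06 at the bound). THY1, a surface glycoprotein used to sort fibroblasts, had 9604, 10064 and 10161 against 0 to 9.40 (median 1.54). CDH11, the mesenchymal cadherin, had 7912, 9449 and 8646 and 0 in epithelium, at least 3055-fold higher. CDH2, encoding N-cadherin, is often counted as mesenchymal and did not differ by the test: 1386, 1419.7 and 1415 against 1097 to 1613 (median 1283) (log2 0.09, SE 0.11). MCAM was 80.5-fold lower. The other lower one, DPP4, differed by 1.6-fold and lost its call in 2 of the 3 fits that left out a fibroblast library.

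Of 28 mesenchymal transcription factor genes tested, 22 were higher and 5 lower in fibroblasts (median 5.73). TWIST1 had 242, 241 and 232 counts and 0 in epithelium, at least 83.9-fold higher, and PRRX1, a homeobox factor of limb and dermal mesenchyme, had 1942, 1671 and 1694 and 0, at least 623-fold higher. SNAI2, which represses epithelial genes, had 936, 861 and 859.5 against 2.39 to 18.6 (median 6.09). ZEB1, a repressor of the same kind, had 6098, 6155 and 6285 against 429.9 to 761 (median 527), 10.9-fold higher, and ZEB2 had 2231, 2169.5 and 2692 against 25.9 to 105 (median 46.2), 45.6-fold higher. ZEB1 was thus present in every epithelial library. SNAI1 went the other way at low levels: 37.5, 34.5 and 33.3 in fibroblasts and 48.5 to 225 (median 72.8) in epithelium (log2 -1.27), a call lost when a fibroblast library was left out under a filter in 2 libraries. FOXC1, FOXP1 and RUNX2 were lower by 16-fold, 3.38-fold and 2.65-fold. The fifth lower one, RUNX1, differed by 1.37-fold and lost its call in 6 of the 9 fits that left out 1 library.

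Of 26 epithelial and nephron transcription factor genes, 25 were lower and 1 higher (median -5.29, -4.41 at the bound). PAX8, which specifies the nephric lineage, had 0, 0 and 1.02 in fibroblasts and 2840.2 to 5662 (median 4156) in epithelium, a ratio of 12453-fold (95% interval 2269 to 499450.5). TFCP2L1, a factor of distal and collecting segments, was 0 in fibroblasts and 2937 to 9644 (median 6221) in epithelium, at least 1995-fold lower. ELF3, an epithelial ETS factor, was 0 against 856 to 1813 (median 1556). The one higher gene, EMX2, differed by 1.48-fold and lost its call at equal library totals.

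The HOX genes, which record the position of a cell along the body axis, differed cluster by cluster. In HOXA 9 of 10 tested genes were lower in fibroblasts and 1 higher (median -3.49), in HOXB 8 of 8 were lower (median -2.74), and in HOXD 7 of 7 were lower (median -5.70, -5.48 at the bound). In HOXC 5 of 7 were higher and none lower (median 1.29). These directions of the medians held at equal totals and equal upper quartiles. HOXC8 had 446, 438 and 384 in fibroblasts and 22.3 to 65.2 (median 53.8) in epithelium, 8.42-fold higher. HOXD10 was 0 in all fibroblast libraries and 211 to 468 (median 333) in epithelium, at least 108-fold lower. HOXA10 and HOXA11, near the far end of their cluster, were close between the lines, at 1.56-fold lower and 1.79-fold higher, and HOXA11 lost its call at equal totals.

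**Figure D3:**
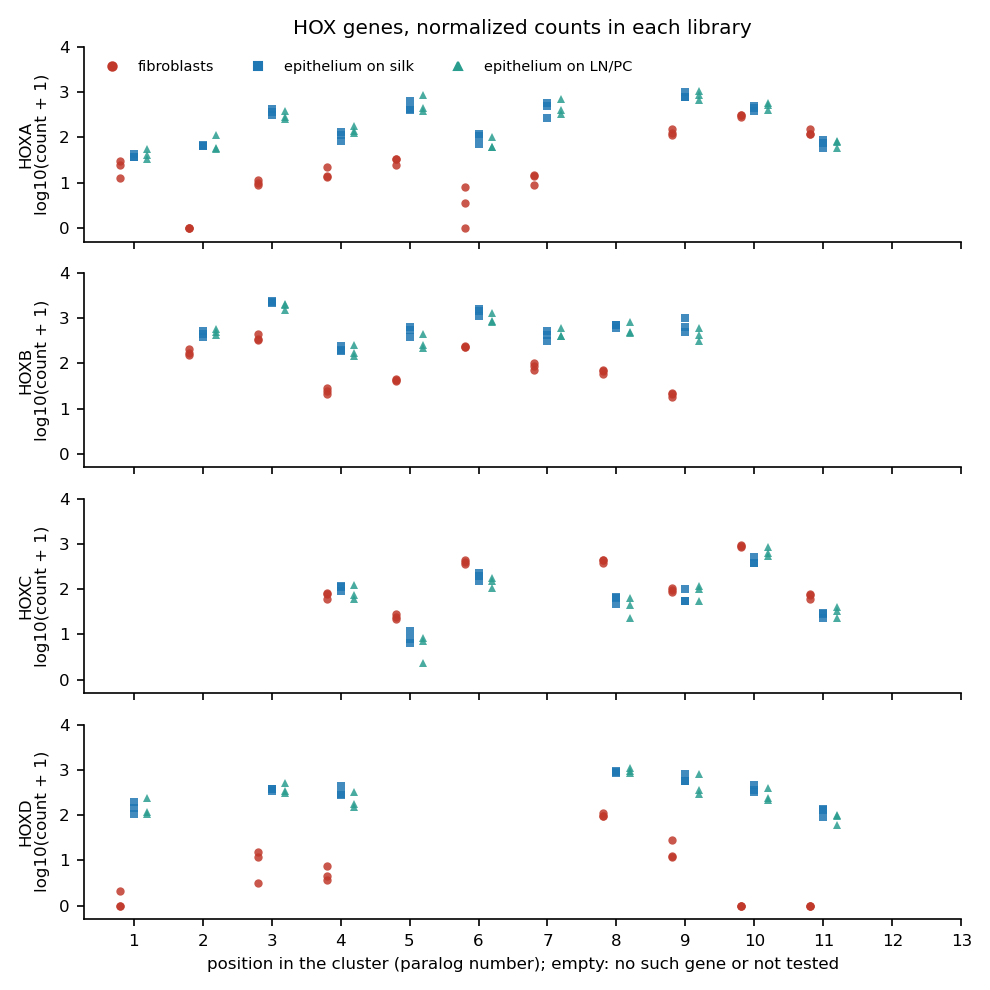
Normalized counts of the tested HOX genes on a log10(count + 1) axis in each library, 1 panel per cluster and genes in order of paralog number, with fibroblasts in red circles and epithelium on silk and LN/PC in blue squares and green triangles. Fibroblasts lie below the epithelium over HOXB and HOXD and above it at HOXC5, HOXC6, HOXC8, HOXC10 and HOXC11.

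ZEB1, ZEB2, SNAI2 and TWIST1 belong to families known to bind E-boxes, and CACCTG is the form that ZEB and SNAI repressors bind in epithelial promoters. This word was 1 of 9 counted in RefSeq windows of 300 bases (250 before to 50 after the start, GRCh38.p14), and it was singled out after the values were seen. A window was found for 10978 of the 14502 genes tested, and 3170 of them had more than 1, of which the first listed was used. CACCTG, which reads on the opposite strand as CAGGTG, occurred on either strand in 1970 windows, or 17.9%. Among genes at least 4-fold lower in fibroblasts 357 of 1233 windows held it (29.0%), among genes at least 4-fold higher 110 of 875 (12.6%), and among genes not called 760 of 4569 (16.6%). The median GC content of these windows was 65.0%, 64.7% and 64.7%, beside 65.3% over all genes. The windows were still not alike in kind: CCGCCC, another of the words, was in 63.8%, 61.9% and 70.0% of them, beside 69.9% over all. With any listed window of a gene counted, the shares of CACCTG were 35.6%, 19.8% and 21.5%, beside 23.6% over all.

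The following stretches before the start show the word in genes that were lower in fibroblasts, with CACCTG or CAGGTG in capitals. CRB3 encodes the epithelial Crumbs protein of the apical membrane, JUP plakoglobin of desmosomes, ELF3 and TFCP2L1 epithelial transcription factors, ITGB6 an epithelial integrin chain and SPP1 the secreted phosphoprotein osteopontin. The CRB3 window is given up to its start and the others are 80-base stretches around a match.
CRB3, chr19:6464021-6464270, plus strand: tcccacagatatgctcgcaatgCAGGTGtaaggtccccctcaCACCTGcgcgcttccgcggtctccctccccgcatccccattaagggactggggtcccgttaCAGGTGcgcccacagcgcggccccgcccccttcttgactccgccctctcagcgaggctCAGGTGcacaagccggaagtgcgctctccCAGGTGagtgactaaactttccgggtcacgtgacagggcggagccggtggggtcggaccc
JUP, chr17:41785988-41786067, minus strand: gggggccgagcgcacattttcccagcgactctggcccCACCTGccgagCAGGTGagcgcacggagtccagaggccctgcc
ELF3, chr1:202010430-202010509, plus strand: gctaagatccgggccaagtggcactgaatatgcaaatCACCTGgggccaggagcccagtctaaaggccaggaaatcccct
TFCP2L1, chr2:121285373-121285452, minus strand: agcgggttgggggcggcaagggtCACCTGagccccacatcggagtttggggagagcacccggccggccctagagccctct
ITGB6, chr2:160200300-160200379, minus strand: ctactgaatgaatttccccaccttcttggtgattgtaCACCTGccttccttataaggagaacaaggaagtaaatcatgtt
SPP1, chr4:87975565-87975644, plus strand: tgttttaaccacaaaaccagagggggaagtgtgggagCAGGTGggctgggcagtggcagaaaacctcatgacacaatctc

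By size of difference, over 12 intervals, the share was 33.9% (43 of 127 genes) below a log2 difference of -8, 27.8% from -4 to -2, 17.9% from -1 to 0, 15.6% from 0 to 1, 14.2% from 2 to 4 and 10.8% (13 of 120) at 8 or above. CATCTG and the palindrome CACGTG, other words of the E-box form that cannot coincide with it, did not follow the same order. CATCTG was in 11.8% of windows below -8 and 12.5% at 8 or above, and CACGTG in 4.72% and 8.33%. Of the junction and polarity genes called lower, 9 of 32 with a window held CACCTG (28.1%), and of those not called or called higher 2 of 15 (13.3%). Epithelial and nephron transcription factors, of which 25 of 26 were lower, held it in 3 of 17 windows (17.6%), near the 17.9% of all genes. The word is not confined to epithelial genes: 3 of 11 mesenchymal surface marker windows held it (27.3%), and 10 of 77 among matrix and identity genes that were higher in fibroblasts (13.0%). CRB3, with 5 matches, was 0 in every fibroblast library and 71.8 to 132 (median 104) in epithelium. JUP had 79.3, 91.9 and 63.0 against 1633 to 3164 (median 2344). Of 9 words tabulated CACCTG was singled out after the values were seen. The other words were GTTAAT, in 3.64% of all windows, TATAAA of the TATA box (5.46%), CCGCCC of SP1 (69.9%), TGACTCA of AP-1 (3.08%), CATTCC of TEAD factors (11.1%) and TTATTTA (2.38%), and the CArG box was looked at without being tabulated. CACCTG was not the only word more frequent below -8: GTTAAT and TGACTCA were each in 7.87% of windows there. At 8 or above they were in 2.5% and 3.33%, and GTTAAT was in 9.52% from 4 to 6. TATAAA was in 8.03% of windows of genes at least 4-fold lower and 9.6% of those at least 4-fold higher. A match is a description of letters and not a binding site, and binding of ZEB or SNAI factors was not measured here.

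**Figure D4:**
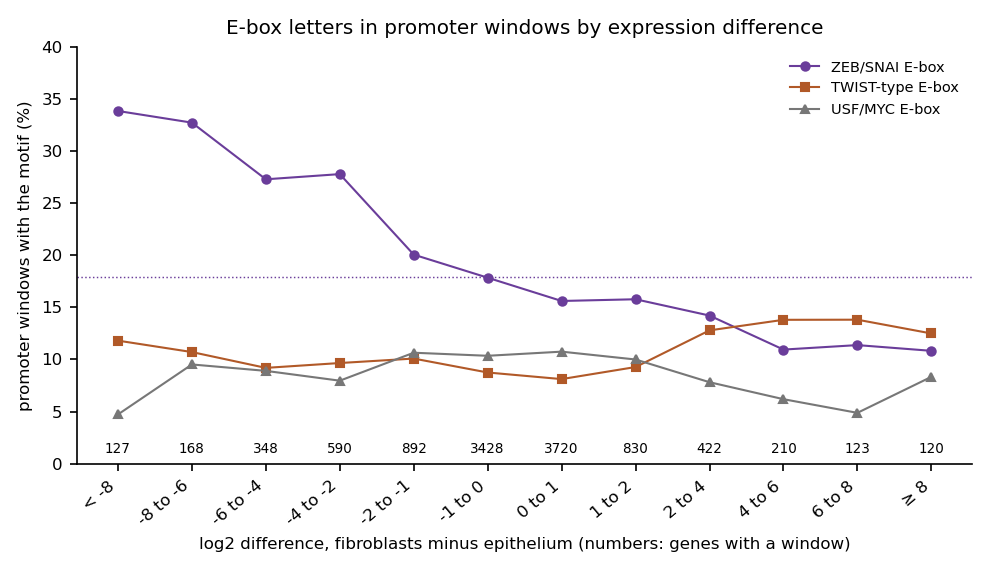
Percent of genes whose first listed RefSeq promoter window holds CACCTG, the related CATCTG or the palindrome CACGTG on either strand (y axis) in 12 intervals of the log2 difference, fibroblast minus epithelium (x axis), with CACCTG as purple circles (ZEB/SNAI E-box), CATCTG as orange squares, CACGTG as grey triangles and the share of CACCTG over all genes as a dotted line. CACCTG goes from 33.9% in the genes with the lowest values in fibroblasts to 10.8% in those with the highest, with 17.9% over all genes.

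All 5 simple epithelial keratins tested were lower in fibroblasts (median -6.57). KRT18 was 0 in fibroblasts and 2004 to 2966 (median 2658) in epithelium, at least 861-fold lower, and its partner KRT8 had 0.938, 6.63 and 6.53 against 4874 to 11954 (median 7692). KRT7 remained in fibroblasts at 14.8, 6.20 and 9.54, against 14.6 to 87.6 (median 37.5) in epithelium, so that its groups touched.

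Of 19 epithelial adhesion and desmosome genes, 15 were lower and 2 higher (median -2.81). CDH16, a cadherin of kidney tubules, was 0 in fibroblasts and 5576 to 11461 (median 9731) in epithelium, at least 3037-fold lower. CDH1, encoding E-cadherin, was also 0 in fibroblasts but low in epithelium, at 26.5 to 86.6 (median 59.7) (at least 19.3-fold lower), and CDH3, CDH6, DSG2 and PKP2 were 0 in fibroblasts too. DSP, desmoplakin, differed by 1.73-fold: 1131, 1498 and 1592 against 1811 to 3353 (median 2166). PPL, encoding periplakin, was higher in fibroblasts, at 5085, 5045 and 5059 against 563 to 1161 (median 858), as was NECTIN3. The catenin genes CTNNA1 (log2 -0.29) and CTNNB1 (log2 -0.09) were not called.

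Tight junction genes were lower in fibroblasts in 18 of 22 cases and higher in 1 (median -5.04, -4.47 at the bound). CLDN2, the claudin of the leaky proximal tubule, had 0, 1.82 and 0 against 337 to 822 (median 649). CLDN16, a claudin of the thick ascending limb, had 0.977, 0 and 0 against 508 to 1909.6 (median 903). OCLN, encoding occludin, had 26.6, 17.9 and 27.8 against 346 to 581 (median 412). CLDN11 was the exception, with 5944, 5454 and 5752 in fibroblasts and 3.66 to 13.6 (median 9.73) in epithelium, 650.1-fold higher. TJP1, encoding the scaffold ZO-1, did not differ by the test: 1422, 1422 and 1458 against 1011 to 1701 (median 1270.4) (log2 0.14).

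Of 25 apical polarity genes 15 were lower and 4 higher (median -0.68). LLGL2 and PARD6B were lower by at least 441-fold and 320.1-fold, and PATJ, an apical scaffold, had 86.0, 113 and 105 against 2172 to 3337 (median 2601). MAL, a raft protein of apical transport, was 0 in fibroblasts and 2203 to 3099.5 (median 2886) in epithelium. EZR, ezrin of microvilli, had 518, 443 and 431 against 4092 to 6829 (median 5613), whereas the related MSN (log2 -0.10) and RDX (log2 0.34) were not called. PODXL and NHERF2 were higher, by 9.48-fold and 2.82-fold. MPDZ and SCRIB were higher by 1.43-fold and 1.37-fold and lost the call at equal totals.

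**Figure D5:**
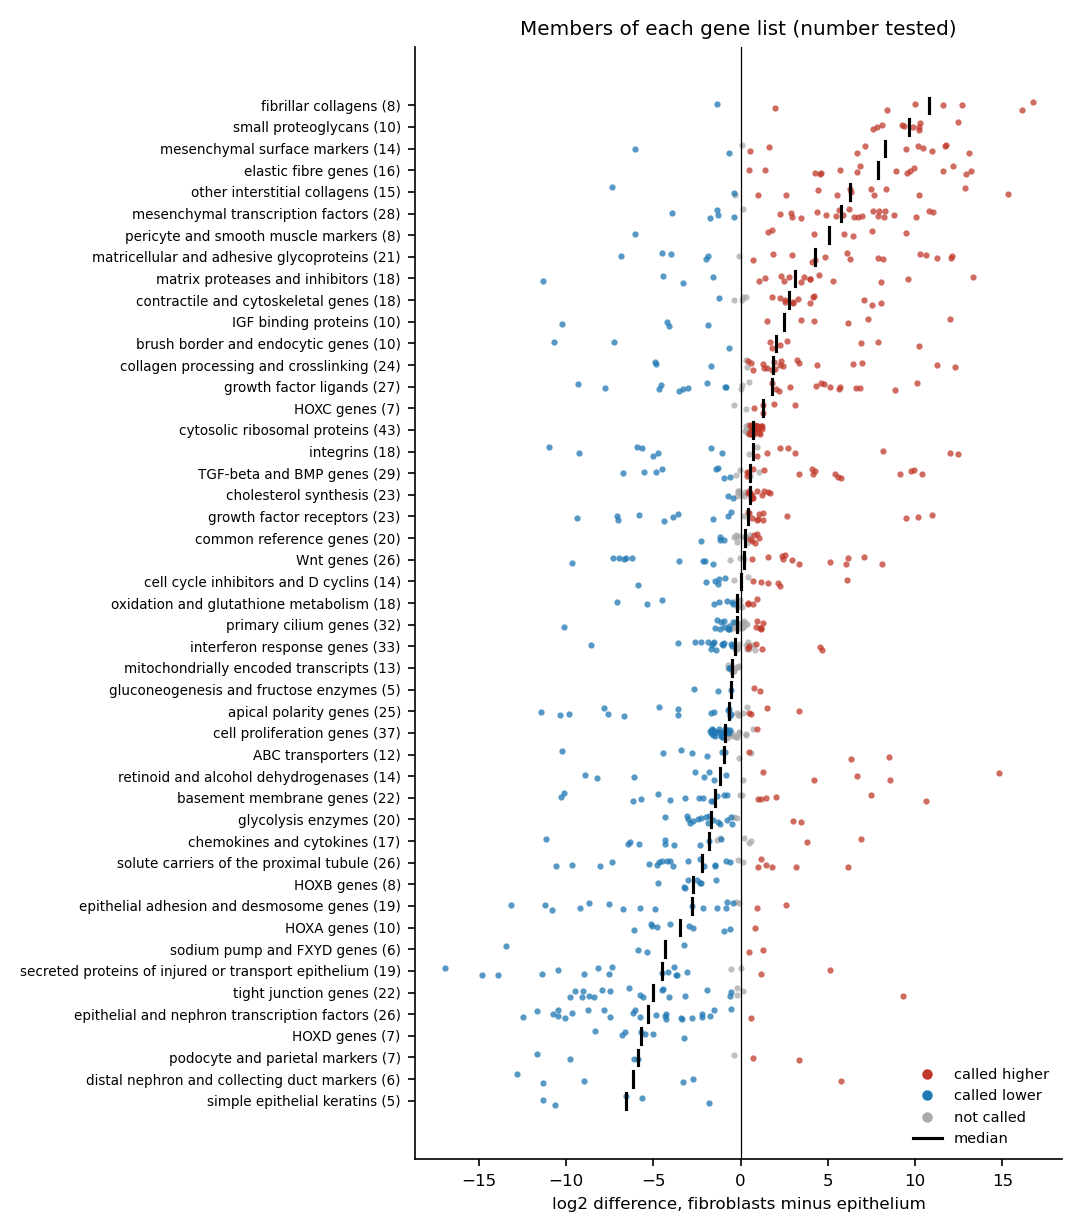
Log2 difference, fibroblast minus epithelium, of every tested gene in the gene groups (points), with the median of each group as a bar, a vertical line at 0 and the number of tested genes beside each name. Red points were called higher in fibroblasts, blue points lower and grey points not called. The collagen, proteoglycan and elastic fibre groups lie to the higher side, and basement membrane genes, keratins, tight junction genes, HOXD genes and epithelial transcription factors to the lower side.

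Of 25 brush border and endocytic genes listed, 12 had values and 10 were tested. Of these 10, 7 ran against the tubule label, being higher in fibroblasts, and 3 were lower (median 2.03). AMN and CLTRN missed the filter, with at most 1.14 and 0 in fibroblasts and at most 9.26 and 9.12 in epithelium. The rest of the list was not assessed. MME, the neutral endopeptidase of the proximal brush border that dermal fibroblasts also carry, had 8081, 8947 and 9024 in fibroblasts and 2.32 to 15.1 (median 6.56) in epithelium, 1119-fold higher. ANPEP, aminopeptidase N, had 9754, 11757 and 11614 against 1046 to 2278 (median 1809), 6.29-fold higher. ACE was 305-fold higher and XPNPEP2, 0 in epithelium, at least 42.7-fold higher. CUBN, the albumin receptor cubilin, was higher too, with 111, 193 and 149.7 against 25.8 to 108 (median 41.1). GGT1, a peptidase of the same border, followed the label, with 0.721, 0 and 0.472 against 1622 to 2668 (median 2342), as did PDZK1, 188-fold lower.

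AQP1, the water channel of the proximal tubule, also known from capillary endothelium and red cells, had 6193, 6990.2 and 6944 in fibroblasts and 5.29 to 14.7 (median 11.3) in epithelium, 639.7-fold higher (log2 9.26, SE 0.30, limma adjusted p 3e-10). Every fibroblast library was far above every epithelial one. AQP3 and AQP4 were lower in fibroblasts, by 11.1-fold and at least 19.4-fold.

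Of 6 sodium pump and FXYD genes 4 were lower and 2 higher in fibroblasts (median -4.30, -3.56 at the bound). ATP1B1, the beta subunit of the pump, had 136, 139 and 128 in fibroblasts against 5263 to 9987 (median 7688) and was 59.2-fold lower. FXYD2, its regulatory gamma subunit, was 0 in fibroblasts and 6595 to 18849 (median 12465) in epithelium, at least 3949-fold lower. FXYD5 was higher in fibroblasts, by 2.39-fold. Of 50 solute carriers of the proximal tubule listed, 26 had values, of which 18 were lower and 6 higher (median -2.21). SLC3A1, of the cystine carrier, had 2.22, 1.66 and 1.63 against 3397 to 5015 (median 4475), SLCO4C1 had 2.16, 0 and 0 against 525 to 2232 (median 1247), and SLC2A1, the glucose carrier GLUT1, had 161, 174 and 155 against 3705 to 5579 (median 4066). SLC7A8, an amino acid carrier, was higher in fibroblasts, 262, 284 and 321 against 0 to 32.9 (median 3.28). ABCB1, the drug efflux pump, was 0 in fibroblasts and 591 to 1409 (median 1371) in epithelium, among 7 of 12 ABC transporters that were lower, with 3 higher.

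The label of the epithelium was read against markers of neighbouring nephron segments. Of 18 distal nephron and collecting duct markers 6 were in the table, and their summed level was 10433 to 17524 in epithelium and 119 to 181 in fibroblasts. Of these 6 genes 5 were lower and 1, SLC26A4, higher in fibroblasts, and the rest of the list was not assessed. SLC12A1, the sodium, potassium and chloride carrier of the thick ascending limb, was 0 in fibroblasts and 3298 to 10726 (median 8343) in epithelium. KCNJ1, the potassium channel of the same segment, was 0 against 2108 to 3131 (median 2581). SCNN1A, a subunit of the sodium channel of distal segments, had 10.4, 2.28 and 13.2 against 3235 to 4299 (median 4249.8). The epithelial line thus carried SLC12A1, KCNJ1 and SCNN1A in every library beside AQP1 and CUBN values under those of the fibroblasts, and HNF4A, LRP2 and SLC34A1 were not analysed here.

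Markers of other cell types that either culture could hold were summed in the same way. Of 15 keratinocyte markers 4 were in the table, with sums of 291 to 351 in fibroblasts and 446 to 752 in epithelium, and of the melanocyte markers 2, with 2.37 to 16.7 and 728 to 1377. Of the 3 keratinocyte genes tested 1 was higher and 2 lower in fibroblasts: KRT10 had 342, 319 and 274 against 158 to 219 (median 201), a call lost at equal totals, KRT15 had 3.90, 4.60 and 9.64 against 7.23 to 67.2 (median 12.3), a call lost in 2 of the 3 fits without a fibroblast library, and SFN was 0 in fibroblasts. Of 15 leukocyte markers only CD68 had values, higher in fibroblasts at 581, 523 and 536 against 85.8 to 255 (median 185). Of 12 endothelial markers 2, PECAM1 and EGFL7, had values, both lower in fibroblasts, with sums of 38.0 to 39.9 against 53.7 to 173. PECAM1 had 1.38, 0 and 0.796 in fibroblasts. The 7 podocyte and parietal markers summed to 429 to 476 in fibroblasts and 4319 to 8363 in epithelium. Of these 7 genes 4, among them the nephric factor PAX8, were lower in fibroblasts. The 2 higher ones were PODXL and SYNPO, and SYNPO lost its call at equal totals. The 8 pericyte and smooth muscle markers tested summed to 3705 to 4098 in fibroblasts and 174 to 357 in epithelium, with CSPG4 at 1398, 1204 and 1094 and SYNPO2 at 1866, 2159 and 1942 in fibroblasts, and CNN1, a defining gene of smooth muscle, at 26.5, 17.1 and 14.8. Of these 8 genes 7 were higher and 1, MCAM, lower in fibroblasts, at 1.40, 5.69 and 0.591 against 103 to 310.5 (median 212). The part of such cells in the differences was not tested.

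Secreted and surface products of the epithelium gave the largest differences downward. SPP1, encoding osteopontin, was 0 in fibroblasts and 104766 to 183584 (median 121002) in epithelium, at least 42375-fold lower. CD24, a surface glycoprotein of tubule progenitors and many epithelia, had 0, 0 and 1.48 in fibroblasts and 30159 to 50281 (median 38807) in epithelium, a ratio of 80856-fold (95% interval 16613 to 495552). SERPINA1, alpha-1 antitrypsin, was 0 in fibroblasts and 3227 to 53959.9 (median 21933) in epithelium, a spread that followed the membrane. Of 19 genes in this group 15 were lower and 2 higher (median -4.50). WFDC2, HAVCR1 and PROM1 were 0 in fibroblasts, and MUC1 had 23.6, 9.66 and 10.7 against 1239.6 to 3643 (median 2527). VCAM1 was higher, at 617, 587 and 539 against 2.64 to 109 (median 21.6). APOE, the other higher one, differed by 2.18-fold and lost its call in the fit with all 15 libraries, at equal totals and in 2 of the 3 fits without a fibroblast library.

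Ligands and receptors were read as pairs across the lines, each with its own test. HGF, the ligand of MET, had 62.1, 41.8 and 50.01 in fibroblasts and 0 in epithelium, while MET had 193, 174 and 173 in fibroblasts and 2174 to 3133 (median 2558) in epithelium, 14.6-fold lower in fibroblasts. FGF7, a ligand of epithelial FGFR2, had 915, 940.0 and 827 against 0 to 2.50 (median 1.02), and FGFR2 had 41.8, 49.5 and 51.9 against 98.4 to 199.8 (median 161). In the other direction PDGFB was 0 in fibroblasts and 94.1 to 331 (median 248) in epithelium, while its receptor PDGFRB had 7529, 8543 and 8136 in fibroblasts and at most 15.8 in epithelium. PDGFRA, the related receptor, had 5028, 5042 and 5077 and at most 9.18. RSPO1, which acts through LGR receptors, had 335, 249 and 238 and 0 in epithelium, and LGR4 had 259, 206 and 201 against 1893 to 3259 (median 2666). GAS6, a ligand of MERTK, had 13591, 13839.5 and 13923 against 389.8 to 804 (median 559), and MERTK was 0 in fibroblasts and 68.1 to 177 (median 151) in epithelium. AXL and TYRO3, related receptors on the same list, were tested as well and are not reported here, so no direction of GAS6 signalling follows from MERTK. Both KITLG and its receptor KIT were higher in fibroblasts: KITLG had 2061, 1950.4 and 1824 against 340.3 to 508 (median 444) and KIT 702, 688 and 787 against 0.

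Over the whole lists 14 of 27 growth factor ligands were higher and 10 lower (median 1.80), and 12 of 23 receptors were higher and 10 lower (median 0.43). ANGPT1, the ligand of TIE2, was higher by 12765-fold (95% interval 1400.3 to 308436), and GDNF and IGF1 were 0 in epithelium. TGFA, a ligand of EGFR, was 0 in fibroblasts and 403 to 929 (median 681) in epithelium, VEGFA had 759, 829 and 919 against 5145 to 7916 (median 6988), and ERBB3 and ERBB4 were 0 in fibroblasts. EGFR itself was higher in fibroblasts, 2422, 2652 and 2911 against 767 to 1374 (median 1108), and epidermal growth factor was part of the epithelial medium.

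Among 29 TGF-beta and BMP genes 16 were higher and 8 lower (median 0.54). TGFB2 was lower in fibroblasts, at 13.5, 0 and 5.12 against 156 to 267 (median 216), and the receptors TGFBR2 and TGFBR3 were higher, by 2.46-fold and 18.1-fold. The BMP antagonist GREM1 had 12078, 10366 and 10756 against 1.84 to 23.7 (median 6.63), FST, which binds activins, was at least 194-fold higher, and BMP4 was 29.3-fold lower. GDF15, a stress-induced family member, had 14.8, 16.3 and 11.4 against 809 to 3641 (median 1644). Of 26 Wnt genes 12 were higher and 10 lower, with a median of 0.19 that turned to -0.18 at equal library totals. WNT5A, WNT5B and WNT16 were higher, by 5.30-fold, 10.2-fold and at least 23.5-fold, as was ROR2, a receptor for WNT5A, at least 49.7-fold higher. WNT6, WNT7A, WNT7B, WNT9B and WNT10A were all at 0 in fibroblasts, and WNT7B had 579.9 to 1300.1 (median 786) in epithelium.

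The IGF binding proteins divided, with 6 of 10 genes of that group higher and 4 lower. IGFBP2 had 13246, 12601 and 12089.6 against 0 to 4.04 (median 2.42), and IGFBP7 had 1258, 1187 and 1031 against 16185 to 25168 (median 20377). PAPPA, a protease of IGFBP4, was 67.6-fold higher, and its relative PAPPA2 1833-fold lower. Of 17 chemokines and cytokines 10 were lower and 2 higher (median -1.79). CXCL12, a stromal chemokine, had 2075, 1999.7 and 1743 against 6.44 to 57.5 (median 13.2), while CXCL14 had 4.73, 0 and 0 against 2609 to 5809 (median 4237) and CXCL8 5.98, 0 and 0 against 51.5 to 1289 (median 84.5). IL34, a ligand of the CSF1 receptor, was the other higher one, by 10.4-fold.

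Glycolysis genes were lower in fibroblasts in 16 of 20 cases and higher in 2 (median -1.70). LDHB had 4974, 4466 and 4813 against 23244 to 47527 (median 37819), 7.68-fold lower, PFKP was 8.33-fold lower and HK2 8.30-fold lower. The higher ones were ALDOC and the glucose carrier SLC2A3, by 6.01-fold and 7.89-fold. PPARGC1A, a coactivator of mitochondrial genes, had 3.57, 0 and 3.83 against 289 to 538 (median 376). It does not stand for its list: of 18 oxidation and glutathione genes tested 8 were lower and 4 higher (median -0.20). PPARA, HADHA, CPT1A and GSTM1 were higher, each by a call lost at equal totals. Of 23 cholesterol synthesis genes 14 were higher and 2 lower (median 0.53, 0.16 at equal totals), with LSS higher by 3.20-fold and INSIG1 by 2.80-fold. In retinoid and alcohol metabolism 5 of 14 were higher and 8 lower. ADH1B, a class I alcohol dehydrogenase, had 30936, 30859.6 and 26073 counts and 0 in epithelium, at least 10322-fold higher. Retinaldehyde dehydrogenases went in opposite directions: ALDH1A3 had 477, 654 and 561 against 0 to 1.15 (median 0.628), and ALDH1A1 had 7.37, 0 and 7.14 against 1802 to 2483 (median 1918).

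Of 37 proliferation genes 23 were lower in fibroblasts and 1 higher (median -0.91). MKI67, a marker of cycling cells, had 307, 376 and 291 against 419 to 1756 (median 918), and CDC20 had 56.1, 65.4 and 38.6 against 121 to 287 (median 164). The one higher gene, CCNE2, differed by 1.86-fold and lost its call at equal totals and in 2 of the 3 fits without a fibroblast library. CDKN1A, the inhibitor p21, was higher, at 3472, 3536 and 3490.4 against 577 to 968 (median 717), as was CCND1, 9035, 9754 and 11191 against 1229.8 to 2748 (median 2594). CDKN1C, the inhibitor p57, was 70.7-fold lower. Over 14 inhibitors and D cyclins 6 were higher and 6 lower, with a median of 0.02 that became -0.35 at equal totals. TERT, the gene used for immortalization, had 2707, 3586 and 3658 in fibroblasts and 3886 to 10284 (median 5804) in epithelium.

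Cytosolic ribosomal protein genes were higher in fibroblasts in 35 of 43 cases and lower in none, with a median of 0.73 that was 0.35 at equal totals. Interferon response genes split, with 6 of 33 higher and 16 lower (median -0.30), beside 28% higher and 30.3% lower over all genes. BST2 had 1.28, 5.23 and 1.66 against 871 to 1889 (median 1269), HLA-B had 1757, 2063 and 1799 against 6282 to 15264 (median 8806), and MX2 was higher, at 55.0, 102 and 99.9 against 0 to 11.5 (median 2.81). Of 32 primary cilium genes 6 were higher and 11 lower (median -0.21), no larger a share called than the 58.3% of all genes. PKHD1, the gene of recessive polycystic kidney disease, was 0 in fibroblasts and 622 to 1715 (median 1239.6) in epithelium, while PKD1 was 2.29-fold higher and PKD2 1.36-fold lower.

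Among 20 common reference genes 6 were higher and 4 lower, a share called under the 58.3% of all genes. Their median of 0.23 turned to -0.14 at equal totals. GAPDH had 14506, 14310.2 and 15997 against 22976 to 50727 (median 32970.4), 2.32-fold lower, and PGK1 was 5.22-fold lower, whereas ACTB (log2 0.24, SE 0.23) and PPIA (log2 0.23, SE 0.15) were not called. The abundant genes with the smallest differences were GOLGB1, ACTN1, HSP90AB1, NEAT1, DDX3X and EIF4A2, between -0.036 and 0.023. HSP90AB1 came to -0.39 and was called at equal totals.

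Restriction to a single line was found at both ends, but the counts of the ends cannot be compared. Absence from fibroblasts means 0 in 3 libraries, and absence from epithelium means 0 in 6. The filter was also uneven. A gene absent from epithelium had to reach 10 normalized counts in all 3 fibroblast libraries. A gene absent from fibroblasts had to reach that value in any 3 of 6 epithelial libraries. In all, 531 tested genes were at 0 in every fibroblast library, 218 of them with an epithelial mean of at least 100 normalized counts and 38 with at least 1000. In the opposite direction 184 were at 0 in every epithelial library, 105 and 31 of them with fibroblast means of that size. Among the latter was SLIT3, a secreted guidance protein, with 11763, 14073 and 12049 counts in fibroblasts. APOD, apolipoprotein D, had 9158, 8915 and 8250.0, and MFAP4, a microfibril-associated protein, had 7750.2, 8421 and 7306. Among the former CFI, complement factor I, had 6312 to 17829 (median 10447) in epithelium, KCNJ16, a basolateral potassium channel of the tubule, 7320.4 to 14996 (median 8358), and AGR2, a disulfide isomerase of secretory epithelia, 4432 to 8649 (median 5914).

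Each membrane was also compared with the fibroblasts alone. Against silk 7961 genes (54.9%) were called, 3804 higher and 4157 lower, and against LN/PC 7872 (54.3%), 3768 higher and 4104 lower. Between the membranes themselves 995 genes (6.86%) were called. The collagen share was 0.437% ± 0.0151 on silk and 0.421% ± 0.0750 on LN/PC (SD, n = 3 each), both far below the fibroblasts. COL21A1 is a gene for which the pooled call hides the membranes: fibroblasts had 95.4, 103 and 65.5, silk 3.37, 10.5 and 5.88 and LN/PC 160.1, 380.2 and 311.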

How the data were processed

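RNA was sequenced from poly-A selected libraries of 3 fibroblast and 6 epithelial monocultures. The submitters' processing notes name Salmon 1.10.3 and DESeq2. For the genome build and annotation, "not given in the sources used here" applies. In the table that the authors deposited, values are log2 numbers with 1 floor shared by all libraries, the form of a variance-stabilizing transformation, and not the linear values that the design had assumed. Inverting that transformation gave normalized counts. All library totals and counts here are on that scale, so the size factors of the authors set the scaling between libraries.

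Normalized counts + 1 were taken to log2 and fitted with limma 3.58.1 (R 4.3.3, trended variance) in 1 fit over 9 libraries for genes at 10 or more in at least 3 of them. The contrast was fibroblasts minus the mean of both epithelial groups, with Benjamini-Hochberg adjustment over the 14502 genes tested. Shares of counts were compared with exact permutation tests. The fit was tested on simulated data with known changes in a small part of the genes and known library totals. Far more genes differed in the real data, so that test cannot speak to the choice of scaling. A gene at 0 in 1 cell type was set to 3 reads per library, on average 3.04 normalized counts in fibroblasts and 2.84 in epithelium, and with 1 to 3 reads in all the ratio carries a 95% exact interval. Nothing in the labels states whether replicates were grown separately, and p-values then reflect only how far these samples spread, possibly for technical reasons.

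The comparison and the 53 gene lists were chosen with earlier results of these data known. They held 1112 genes, of which 846 were in the table and 830 passed the filter. Genes to be named were the 10 with the largest differences per direction without overlap and with a mean of at least 1000, the 6 with most counts per direction among those at least 4-fold apart, the 6 given markers, up to 4 called members of each list per direction, members called against their list, and the 6 abundant genes that differed least. This rule gave 320 genes, and other genes in the text were chosen after their values were seen. A few genes that the rule gave are not reported here. Promoter windows and coordinates are from RefSeq on GRCh38.p14, and no window was found for COL3A1, COL1A2, COL1A1, FXYD2, LUM, THY1, TWIST1, CDH16, KRT18, CDH1 and SLC3A1, among others.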

Additional observations from a re-analysis of the deposited data

Results flagged for a closer look

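Of the 33 genes with the largest differences, most counts or smallest differences, 5 were separated from fibroblasts by another amount on LN/PC than on silk, by limma's test of the difference between the membranes with Benjamini-Hochberg adjustment over all genes, a test that 6.86% of all genes passed. All 5 were at 0 in the fibroblasts, so each value is a difference between the epithelia. SERPINA1 was higher on LN/PC than on silk by 3.02 on the log2 scale (adjusted p = 0.00025), CFI, which encodes complement factor I, by 1.16 (adjusted p = 0.0039), SLC12A1 by 1.13 (adjusted p = 0.012) and CDH16 by 0.63 (adjusted p = 0.049). FXYD2 was lower on LN/PC, with a difference of -1.05 (adjusted p = 0.012). Each remained far below either epithelium in fibroblasts: the fitted differences were -12.40 against silk and -15.42 against LN/PC for SERPINA1, and -13.96 and -12.92 for FXYD2. Membrane and way of harvest cannot be told apart.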

How the results depend on the processing

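The number of genes called, 8460, was 8365 with the replicate block, and same-numbered libraries did not deviate together (correlations of -0.16 to 0.19), so the numbers were not treated as pairs. The count at least 4-fold apart, 3017, fell to 1326 (643 higher, 683 lower) on the deposited values as they stand, a scale that compresses low values. Leaving out 1 library gave 6865 to 8673 genes called over all, 6468 to 8378 against silk, 6371 to 7938 against LN/PC and 2499 to 3000 at least 4-fold apart. Without a fibroblast library the genes at least 4-fold higher dropped from 1227 to 717 to 725, since fibroblast-restricted genes then missed the filter in 3 libraries. With a filter in 2 libraries, chosen after seeing the data, they were 1232 to 1241, with 7339 to 7454 called. The difference in collagen share ranged from 5.35 to 5.62 percentage points, that of the 50 most abundant genes from 6.37 to 6.96, that in genes detected from -622 to -565, and that in mitochondrial share from -1.66 to -0.868. Without a fibroblast library the first 3 of these had p = 0.0714 by the exact permutation test, the smallest that 2 against 6 allows. Of the 320 genes named by rule, 17 lost their call at equal totals, 8 at equal upper quartiles, 2 with the replicate block (RUNX1 and EBP), and 1 (APOE) with all 15 libraries in the fit. Without a fibroblast library 265 of them were tested, of which 10 to 16 lost their call, and 55 missed the filter. With the filter in 2 libraries all 320 were tested and 13 to 15 lost it. None reversed in the fits in which it was tested. Precision is limited by 3 fibroblast libraries and, for genes of few reads, by depth.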

Other observations

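A group of 13 genes lay between the membranes: each was called in opposite directions when fibroblasts were compared with silk and with LN/PC, and they are named here after their values were seen. A2M, encoding the protease inhibitor alpha-2-macroglobulin, had 36.0, 45.4 and 57.8 normalized counts in fibroblasts, 4.49, 6.004 and 0.533 on silk and 369, 935 and 443 on LN/PC. IFI6, an interferon-induced gene, had 478, 585 and 409.9 in fibroblasts, 245, 246 and 219 on silk and 864, 1581 and 2284 on LN/PC. For SREBF1, a regulator of lipid synthesis, fibroblasts had 1298, 1547 and 1506, silk 943, 926 and 756 and LN/PC 2342, 1935 and 1996. COL21A1, SNCAIP, LY6E, SHISA5, PLEKHA4 and ALDH3A2 had the same order, with silk below fibroblasts and LN/PC above them. AFAP1L1 and a pair of genes without a symbol had the reverse order, and AFAP1L1 had 129, 122 and 117 in fibroblasts, 229, 179 and 222 on silk and 70.1, 93.1 and 78.2 on LN/PC.

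Melanocyte-linked MITF, a transcription factor with forms in several tissues, was lower in the dermal line than in the renal one, at 0.792, 16.7 and 6.31 against 708 to 1367 (median 888). SLC26A4, the anion exchanger of collecting duct intercalated cells, ran against its list, with 156, 107 and 148 in fibroblasts and 0.535 to 3.49 (median 1.34) in epithelium.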
